A study of Mus musculus with 4 samples.

Results

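The genes described here are 39 genes of liver sinusoidal endothelial cells, the receptors, junction proteins, secreted factors and transcription factors by which these cells are known. They were matched by name: every probe set whose platform annotation gave exactly 1 gene symbol, equal to 1 of the 39, was a member. All 39 genes had such a probe set, 69 of the 45101 probe sets in all. Liver RNA of male C57BL/6J mice was measured on 4 Affymetrix arrays, 1 per group. The mice started at 8 to 12 weeks of age and were kept for 20 weeks on diets in which palm oil stood in for lard, and fat gave 10% of the energy (low-fat) or 45% (high-fat). In the last week they received 2 intraperitoneal injections, of clodronate liposomes or of phosphate-buffered saline (PBS). Each diet was combined with each injection, which gave 4 groups, and RNA was pooled from 8 mice in each low-fat and 10 mice in each high-fat group. The series asks how Kupffer cells, macrophages that live in the sinusoids, act on liver fat.

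Each group was 1 pool on 1 array, so the spread between mice was not measured and a difference between 2 arrays has no replicate check. Clodronate liposomes kill phagocytes that take them up, wherever these are, and with PBS as the control the effects of liposomes, of clodronate and of the loss of phagocytes cannot be told apart. The RNA came from whole liver. In such samples fewer endothelial cells and less RNA of a gene per cell cannot be told apart.

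Sinusoidal endothelial cells line the capillaries of the liver lobule. They have pores and no continuous basement membrane, and they clear waste molecules from blood through scavenger and Fc receptors, next to the Kupffer cells that sit on them. They depend on vascular endothelial growth factor (VEGF) and angiopoietin signals, and they secrete Wnt ligands, R-spondin and bone morphogenetic proteins (BMPs) that set zonation and iron handling in hepatocytes. Several of their proteins are also made by macrophages. Of the 39 genes, Lyve1, Fcgr2b, Mrc1, Dnase1l3, Nrp1, Eng, Pecam1, Icam2 and Klf2, 9 in all, were listed here as known in macrophages too. The list may be incomplete, and the part of macrophage RNA in the other genes was not tested.

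The sequence table from RefSeq (build GRCm38.p6) held the region before the start of 24 of the 39 genes, as 28 promoters. The 250 bases before the start are shown, 5′ to 3′ along the gene, for Stab1, Stab2 and Clec4g, the receptors that mark these cells, and for Mrc1, the member with the lowest p-value for clodronate. Capitals mark AGGAAG or CGGAAG on either strand, letters bound by ETS factors, a family that acts in endothelial genes, and 2 such matches may overlap. The Stab1 region is chr14:31168642-31168891 on the minus strand, with 2 matches. The Stab2 region is chr10:87007943-87008192 on the minus strand, with 1 match. The Clec4g region is chr8:3720652-3720901 on the minus strand, with 3 matches of which 2 overlap. The Mrc1 region is chr2:14229164-14229413 on the plus strand, with 3 matches.
Stab1: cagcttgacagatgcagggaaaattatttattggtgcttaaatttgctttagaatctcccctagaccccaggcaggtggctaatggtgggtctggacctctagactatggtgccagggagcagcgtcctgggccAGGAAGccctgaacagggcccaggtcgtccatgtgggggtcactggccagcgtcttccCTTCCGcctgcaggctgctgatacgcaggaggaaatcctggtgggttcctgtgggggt
Stab2: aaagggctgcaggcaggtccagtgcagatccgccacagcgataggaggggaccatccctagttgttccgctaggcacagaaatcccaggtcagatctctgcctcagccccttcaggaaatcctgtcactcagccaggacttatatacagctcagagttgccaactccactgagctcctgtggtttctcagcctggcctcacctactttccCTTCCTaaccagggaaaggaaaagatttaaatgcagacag
Clec4g: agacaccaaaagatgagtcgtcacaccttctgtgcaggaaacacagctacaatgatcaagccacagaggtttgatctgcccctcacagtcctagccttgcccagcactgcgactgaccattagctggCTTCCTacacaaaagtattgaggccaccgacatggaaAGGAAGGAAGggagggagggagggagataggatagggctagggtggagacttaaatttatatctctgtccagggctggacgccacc
Mrc1: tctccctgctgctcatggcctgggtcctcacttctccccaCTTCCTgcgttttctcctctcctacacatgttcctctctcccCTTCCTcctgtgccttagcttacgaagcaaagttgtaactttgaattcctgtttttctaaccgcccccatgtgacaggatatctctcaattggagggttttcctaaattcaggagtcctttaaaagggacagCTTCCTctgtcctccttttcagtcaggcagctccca
These letters were in 15 of the 28 member promoters (53.6%) and in 39.2% of all 32851 promoters of the same length. AGATAA, letters bound by GATA factors, was in 0 of the 28 on either strand and in 9.99% of all promoters. A match is a description of the letters only.

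Values are log2 expression as the authors deposited it, and values under 4 were treated as too dim to measure. Of the 39 genes 36 were at 4 or more on at least 1 array, and 35 of these on all 4. For all genes, 8650 of 18194 were at 4 or more on at least 1 array, and 91.8% of the 8650 on all 4. The dimmest member inside this limit was Emcn, endomucin, which reached 4.27, and the nearest outside was Flt1, a VEGF receptor, which reached 3.15. Flt1 (4 probe sets), Wnt9b (2 probe sets) and Cd34 (1 probe set), the last a mark of vessels other than sinusoids, were under 4 on all 4 arrays, so no difference was measurable in them. The medians over all probe sets were 2.73 to 2.79, under the limit of 4, so they do not show the level of the measurable genes. The upper quartile over all probe sets was highest on the low-fat clodronate array (5.54) and lowest on the high-fat clodronate array (5.37). The median over the 8650 genes was also highest on the low-fat clodronate array (7.44) and lowest on the high-fat clodronate array (7.34). The 3′ minus 5′ difference of the actin control probe sets, a sign of RNA integrity, lay between 1.22 and 1.24 on the 4 arrays.

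Macrophage transcripts fell after clodronate, some to under the limit and others to lower but well measured levels. Clec4f, a lectin receptor of Kupffer cells, was at 9.40 in the low-fat PBS pool, 1.92 in the low-fat clodronate pool, 9.42 in the high-fat PBS pool and 1.88 in the high-fat clodronate pool. The summed signal of 18 Kupffer cell and macrophage markers, back on the linear scale in arbitrary units, was 9186, 746.5, 8478 and 850.2 in the same order. That of the 36 endothelial genes was 9032, 9570, 8801 and 8694. All 18 macrophage markers fell in limma (13 without the mean-dependent prior). Lyz2, lysozyme of myeloid cells, was still at 8.12 in the low-fat and 7.80 in the high-fat clodronate pool, 3.34-fold and 3.65-fold lower than with PBS. Of the hepatocyte markers 10 of 10 were at 4 or more on every array.

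After clodronate on the low-fat diet, most of the endothelial genes differed little. Of the 36 genes 26 were above 0 and 10 below, where 59.7% and 38.9% of all 8650 genes were, and their median difference was 0.09 against 0.04 over all genes. The differences ran from -0.55 for Wnt2 to 0.44 for Ramp2. None was 1.5-fold or more lower or higher, where 1.63% and 1.75% of all genes were, nor 2-fold (0.705% and 0.22%). On the high-fat diet 17 were above 0 and 19 below, against 36.4% and 61.3% of all genes, with a median of -0.01 against -0.05 over all genes. The sign of that median turned with the scaling, to 0.06 after centring of the arrays and 0.05 after quantile normalization. Gata4, Pecam1 and Esam, 3 of the 36, were 1.5-fold or more lower (2.98% of all genes). With values under 5 set to 5 the count was 1. In the high-fat PBS pool Gata4 (5.06) and Pecam1 (5.01) lay so near 5 that neither could then be counted. Bmp2 and Lyve1 were 1.5-fold or more higher on this diet (0.636% of all genes). None was 2-fold lower or higher there (0.809% and 0.0925% of all genes).

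**Figure D1:**
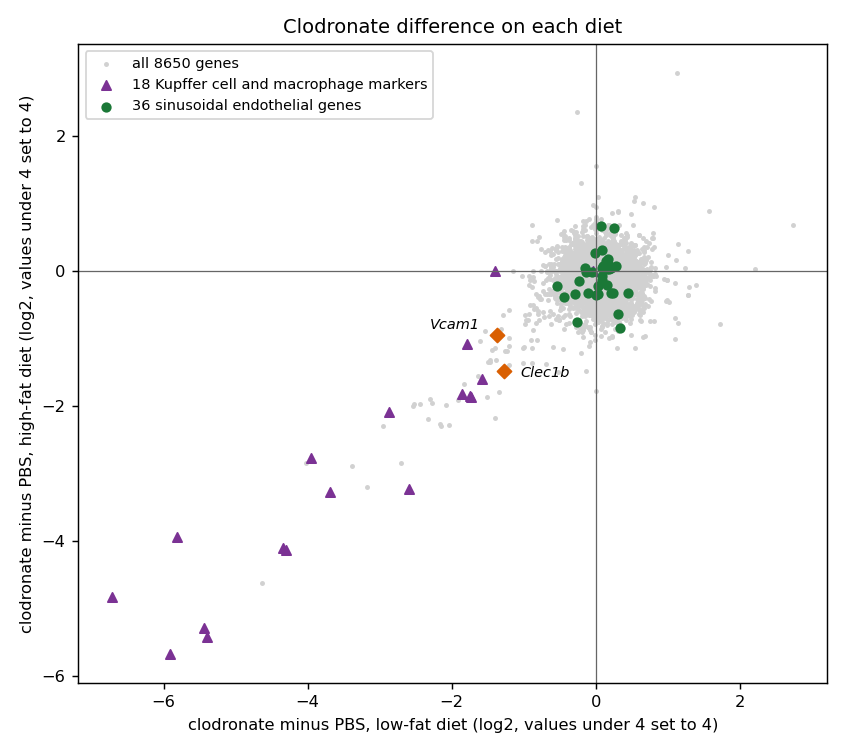
Each point is a gene, with the clodronate minus PBS difference on the low-fat diet on the x axis and on the high-fat diet on the y axis (log2, values under 4 set to 4, 1 array per group). The 36 endothelial genes (green) lie between -0.84 and 0.67 on both axes, while the macrophage markers (purple triangles) reach -6.71 and -5.66. Clec1b and Vcam1 (orange diamonds) are genes outside the 39 that were listed for endothelium and that macrophages also make.

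Averaged over both diets in limma's additive model, none of the 36 genes passed Benjamini-Hochberg adjustment for clodronate. Of all genes 0.971% fell and 0.116% rose. The lowest adjusted p of a member was 0.441 and 3 members were under 0.05 before adjustment (4.74% of all genes), Mrc1, Bmp2 and Pecam1. Without the mean-dependent prior none passed either (0.451% of all genes fell), and 5 were under 0.05 before adjustment (5.1% of all genes), with a lowest adjusted p of 0.765. The averaged difference was below 0 for 18 of the 36, against 51.6% of all genes. The 95% interval of the averaged difference lay within 1 log2 unit of 0 for all 36 genes, with a median half-width of 0.35, so that a 2-fold change lay outside each of them. No group had a replicate array, so these intervals rest on 1 residual degree of freedom, moderated over all genes. It also holds any difference of the clodronate effect between diets. The spread between mice is not in them.

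**Figure D2:**
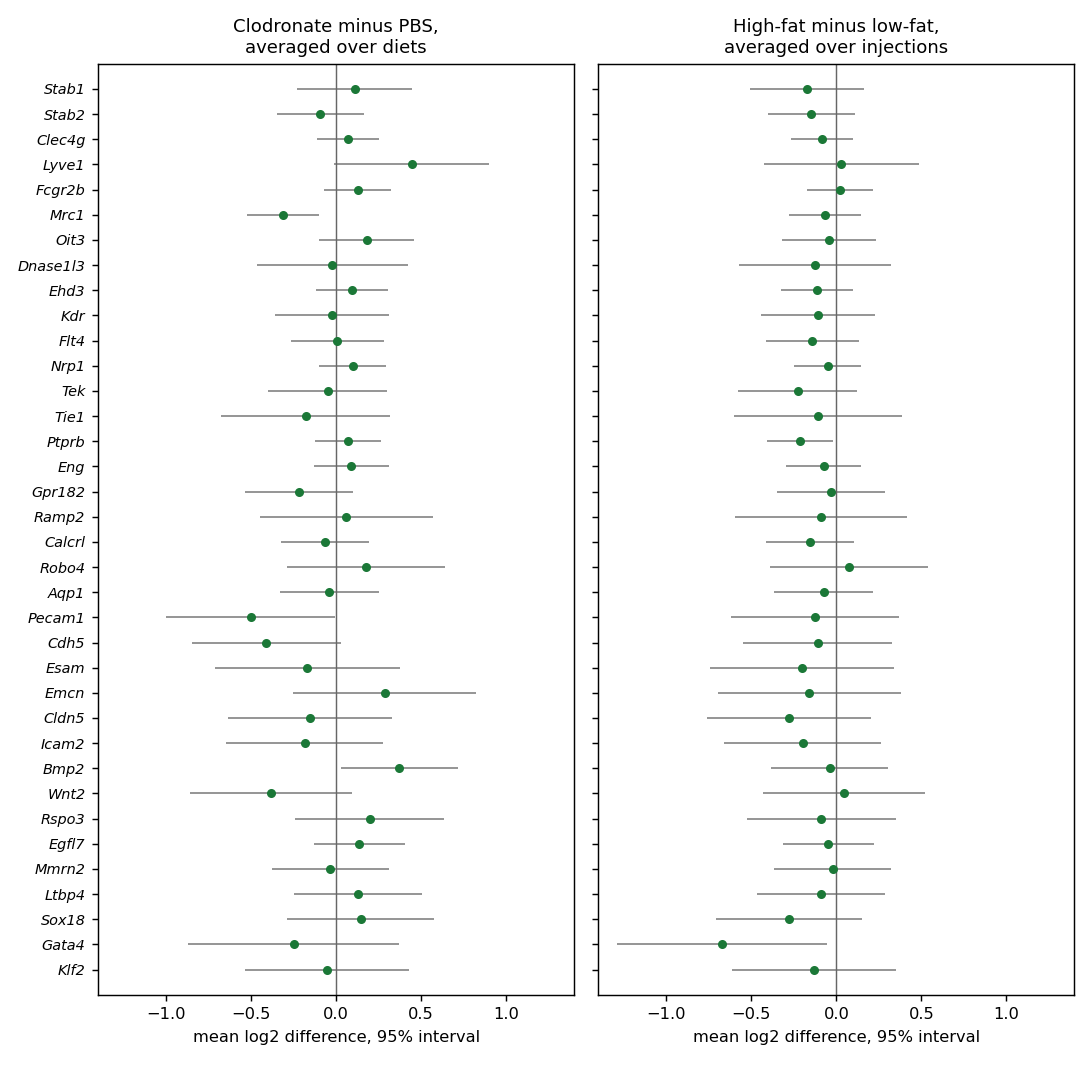
Points are mean log2 differences of the 36 endothelial genes from limma's additive model on the 4 arrays, for clodronate (left) and diet (right), with bars for the 95% interval. The clodronate interval of Mrc1 runs from -0.52 to -0.10 and that of Stab2 from -0.35 to 0.16, and the diet interval of Gata4 from -1.29 to -0.05.

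The 9 scavenger and uptake genes, through which these cells clear collagen fragments, hyaluronan and immune complexes, differed little after clodronate. Of the 9 genes 8 were above 0 with low fat (59.7% of all genes) and 6 with high fat (36.4% of all genes). Stab1, a scavenger receptor of modified proteins, was at 6.89 (low-fat PBS), 7.07 (low-fat clodronate), 6.79 (high-fat PBS) and 6.83 (high-fat clodronate). Stab2, which takes up hyaluronan, was at 8.61, 8.64, 8.58 and 8.37 in the same order of groups, which is kept below. For Stab2 the high-fat clodronate pool was the lowest and the others were close together. Clec4g, a lectin receptor of sinusoidal cells, was at 10.14, 10.25, 10.10 and 10.13.

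Mrc1, the mannose receptor, which clears glycoproteins and collagen propeptides and is shared with macrophages, was lower with clodronate on both diets. It was at 9.39, 9.11, 9.35 and 9.02, so that both clodronate pools lay below both PBS pools. The averaged difference was -0.31 with a standard error of 0.09 (limma, unadjusted p = 0.00861, Benjamini-Hochberg adjusted p = 0.441). Beside it, the summed macrophage signal was 9186 with PBS and 746.5 with clodronate at low fat, and 8478 and 850.2 at high fat. The part of macrophage RNA in the Mrc1 difference was not tested.

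Lyve1, a hyaluronan receptor of sinusoids and lymphatics, was at 5.12, 5.37, 4.96 and 5.59, higher in both clodronate pools than in both PBS pools. It was 1.19-fold higher with clodronate on the low-fat diet and 1.56-fold on the high-fat diet (averaged difference 0.44, 95% interval -0.01 to 0.90, limma adjusted p = 1). Another Lyve1 probe set differed by 0.27 and -0.07 on the 2 diets, and with the mean of both the high-fat difference was 0.28. Fcgr2b, the inhibitory Fc gamma receptor, was at 9.80, 10.00, 9.90 and 9.95. Its probe set carries the suffix _s_at, which marks probes that can match related transcripts. Oit3 was higher by 0.17 and 0.18 with clodronate at low and high fat, and Ehd3, which acts in endocytic recycling, by 0.15 and 0.03. Dnase1l3, a secreted nuclease, differed by 0.08 and -0.13.

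**Figure D3:**
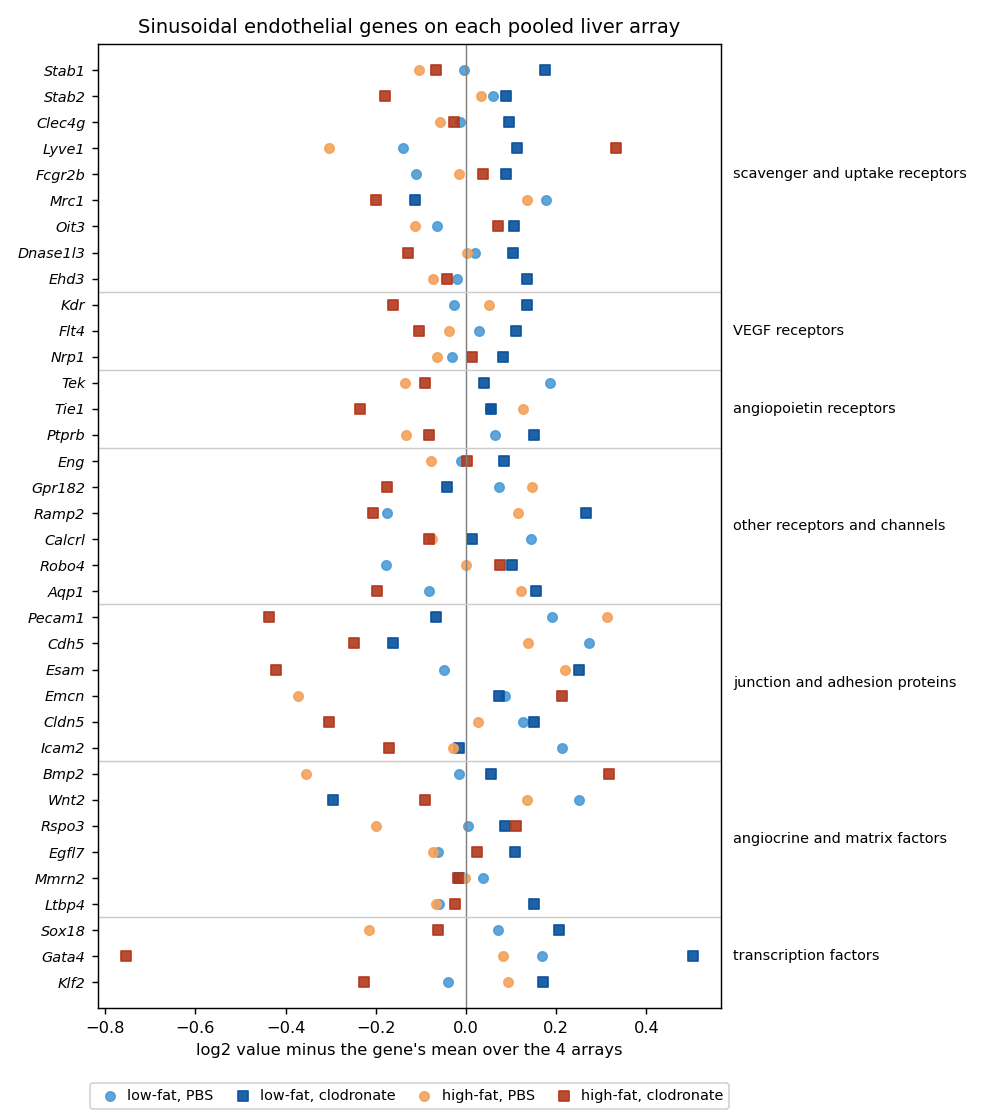
Each row is 1 of the 36 endothelial genes, and the x axis gives each array's log2 value minus the gene's mean over the 4 arrays (as deposited), with the groups by colour and shape. The low-fat clodronate array (dark blue squares) is the highest for 22 genes (14 after centring of the arrays, 16 after quantile normalization), and a high-fat array (orange or red) is the lowest for 33 (29 and 30).

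Of the 4 VEGF receptor genes 3 were measurable. Kdr, the main signalling receptor, was at 7.28, 7.44, 7.36 and 7.15, and Flt4, which binds VEGF-C, at 8.02, 8.10, 7.95 and 7.89. Nrp1, a co-receptor, was at 9.57, 9.69, 9.54 and 9.62. All 3 were highest in the low-fat clodronate pool, as were 36.6% of all genes. Another Flt4 probe set was at 4.38, 4.47, 4.90 and 4.39, highest in the high-fat PBS pool. The averaged clodronate differences of the 3 genes lay between -0.03 and 0.10 with intervals that include 0. The angiopoietin receptor Tek was at 6.94, 6.80, 6.62 and 6.66, and its partner Tie1 at 4.40, 4.41, 4.48 and 4.11. Ptprb, the phosphatase that restrains Tek, was at 9.77, 9.85, 9.57 and 9.62. Both high-fat pools were lower than both low-fat pools for Tek and for this Ptprb probe set. Another Ptprb probe set was at 9.36, 9.45, 9.40 and 9.27, where the high-fat PBS pool lay above the low-fat PBS pool. Among the ligands and partners of these receptors 7 of 12 listed genes were measurable and none was called. Vegfa, the main ligand of Kdr, differed by 0.07 and -0.13 with clodronate at low and high fat. Plxnd1, a semaphorin receptor, was higher by 0.49 on the low-fat diet and differed by -0.54 on the high-fat diet. Angpt1 and Angpt2, the angiopoietins, were under 4 on all arrays.

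Among other receptors and channels, Eng, a co-receptor for BMP ligands, was at 8.95, 9.04, 8.88 and 8.96. Gpr182, a scavenging chemokine receptor, was at 7.34, 7.22, 7.41 and 7.09, lower in both clodronate pools than in both PBS pools (averaged difference -0.22, 95% interval -0.54 to 0.10). Aqp1, a water channel, was at 9.25, 9.49, 9.46 and 9.14. Ramp2 forms the adrenomedullin receptor with Calcrl. Ramp2 was at 5.25, 5.69, 5.54 and 5.22, so that it was 1.36-fold higher with clodronate on the low-fat diet and 1.25-fold lower on the high-fat diet, while Calcrl differed by -0.13 and -0.01. Robo4, which stabilises vessels, was higher by 0.28 and 0.07.

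Of the junction and adhesion genes 6 were measurable. With clodronate on the high-fat diet 5 of them were below 0 (61.3% of all genes). Their median there was -0.36, the lowest of the roles, against -0.05 over all genes. With low fat 4 of 6 were below 0 (38.9% of all genes) and the median was -0.12, against 0.04 over all genes. Pecam1, an adhesion protein of endothelium and of myeloid cells, was at 4.89, 4.64, 5.01 and 4.27, 1.20-fold lower with clodronate on the low-fat diet and 1.68-fold lower on the high-fat diet. Both clodronate pools lay below both PBS pools (averaged difference -0.50, 95% interval -0.998 to -0.01, limma unadjusted p = 0.047, adjusted p = 1). Its highest value was 5.01, so with values under 5 set to 5 almost no difference could remain, and the high-fat difference was then -0.01. Cdh5, the cadherin of endothelial junctions, not among the genes listed as known in macrophages, was at 5.48, 5.04, 5.34 and 4.96. It was 1.35-fold and 1.31-fold lower on the 2 diets, again with both clodronate pools below both PBS pools (averaged difference -0.41, 95% interval -0.85 to 0.03, limma unadjusted p = 0.062). Esam, a junction protein, was at 5.42, 5.72, 5.69 and 5.05, 1.56-fold lower with clodronate on the high-fat diet and 1.23-fold higher on the low-fat diet. Cldn5, the tight junction protein, differed by 0.03 and -0.33 and Icam2 by -0.23 and -0.14. Emcn was under 4 in the high-fat PBS pool (3.69) and between 4.13 and 4.27 in the others, so that its difference on the high-fat diet, 1.21-fold higher with clodronate, is a lower bound.

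Of the angiocrine factors, Bmp2 and Wnt2 differed most. Bmp2, which together with Bmp6 drives hepcidin in hepatocytes, was at 8.02, 8.09, 7.68 and 8.35. It was lowest in the high-fat PBS pool and highest in the high-fat clodronate pool, 1.59-fold higher with clodronate on the high-fat diet and 1.05-fold on the low-fat diet. The averaged difference was 0.37 (95% interval 0.03 to 0.72, limma unadjusted p = 0.0368, adjusted p = 0.969). Wnt2, a ligand for pericentral hepatocytes, was at 4.94, 4.39, 4.82 and 4.59, 1.46-fold and 1.17-fold lower with clodronate (averaged difference -0.39, 95% interval -0.86 to 0.09). Every Wnt2 value lay under 5, so with values under 5 set to 5 no difference could remain on either diet. Wnt9b, another pericentral Wnt ligand, was at 2.16, 2.01, 2.14 and 1.97, under the limit. Rspo3, which amplifies Wnt signals, was at 5.32, 5.40, 5.11 and 5.42. The matrix proteins Ltbp4 and Mmrn2 differed by 0.21 and -0.05 on the low-fat diet and by 0.04 and -0.02 on the high-fat diet. Egfl7, a secreted endothelial factor, was higher by 0.17 and 0.10 by the probe set used. Its other probe sets differed by -0.23, 0.08 and 0.52 on the low-fat diet. In the same order they differed by 0.27, 0.59 and -0.41 on the high-fat diet.

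Hepatocyte and endothelial genes on the receiving side of these factors were not called. Of the 16 listed partners and targets of Wnt, R-spondin and BMP signals 15 were measurable, and none passed in limma for clodronate or diet. With clodronate 14 of the 15 were above 0 at low fat (median 0.17) and 4 of the 15 at high fat (median -0.09). Over all genes 59.7% were above 0 at low fat (median 0.04) and 36.4% at high fat (median -0.05). Hamp, hepcidin, was at 13.92, 14.12, 13.87 and 13.93, and Bmp6 reached 4.26. Id1, a BMP target, was at 6.92, 7.67, 8.23 and 8.01, and its averaged diet difference was 0.82 (limma adjusted p = 0.0939). Lgr5, an R-spondin receptor and Wnt target, was at 3.94, 4.75, 4.74 and 3.79, and Atoh8, a BMP target, at 4.34, 5.44, 5.26 and 4.26. Both were higher with clodronate on the low-fat diet and lower on the high-fat diet. Glul, glutamine synthetase of pericentral cells, lay between 11.96 and 12.18.

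Of the 3 transcription factors, Gata4, which maintains the sinusoidal type, had the widest range of all members. It was at 5.14, 5.48, 5.06 and 4.22. The low-fat clodronate pool was the highest and the high-fat clodronate pool lay 0.84 below the next. It was 1.78-fold lower with clodronate on the high-fat diet, 1.26-fold higher on the low-fat diet, and 2.39-fold lower on the high-fat than on the low-fat diet with clodronate. Its diet difference with PBS was -0.09. The high-fat PBS value, 5.06, lay so near 5 that with values under 5 set to 5 little difference could remain. The clodronate difference on the high-fat diet was then -0.06. Sox18 was higher by 0.13 and 0.15 with clodronate and Klf2, which responds to shear stress, differed by 0.21 and -0.32. In the list of endothelial signalling and shear response genes 12 of 21 were measurable and none was called for clodronate or diet. Klf6, a transcription factor of injured endothelium, differed by -0.92 with clodronate on the low-fat diet and by -0.07 on the high-fat diet.

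**Figure D4:**
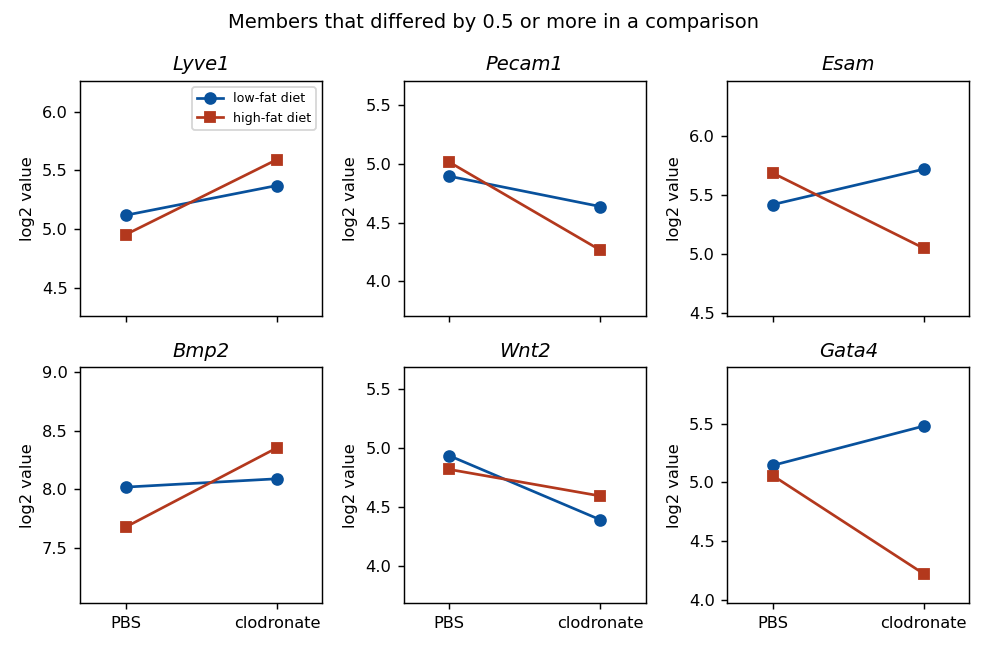
Log2 values of the 6 endothelial genes that differed by 0.5 or more in at least 1 comparison, with PBS and clodronate on the x axis and the diets by colour, 1 array per point. Gata4 and Esam are higher with clodronate at low fat and lower at high fat, Bmp2 is at 7.68 and 8.35 at high fat, Lyve1 is higher and Pecam1 and Wnt2 are lower with clodronate on both diets.

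By the probe set used for each gene, most of the 36 genes had the same direction after clodronate on both diets. Higher on both were 15 (20.8% of all genes), among them Stab1, Clec4g, Oit3, Ehd3, Nrp1 and Eng. Of the 15, Egfl7, Eng, Fcgr2b, Lyve1, Nrp1 and Ptprb had another probe set, at 4 or more, that was lower on the high-fat diet. Lower on both were 8 (22.9% of all genes), Calcrl, Cdh5, Gpr182, Icam2, Mmrn2, Mrc1, Pecam1 and Wnt2. Of the others, 11 were higher on the low-fat and lower on the high-fat diet (37.7% of all genes) and Emcn and Tek the reverse. Opposite by 0.3 or more on each diet were 3, Gata4, Esam and Ramp2 (2.67% of all genes). The 9 genes listed as known in macrophages too had median differences of 0.10 at low fat and -0.13 at high fat. The other 27 had 0.09 and -0.01.

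Probe sets of the same gene did not always share a direction. For 9 genes more than 1 probe set was at 4 or more, and in 21 of 36 comparisons of these genes the probe sets did not share 1 direction. In 2 of the 36, both of Egfl7, they were opposite by 0.3 or more. Nrp1 had 4 such probe sets, and with clodronate on the low-fat diet they differed by 0.11, 0.24, 0.42 and 0.72. On the high-fat diet the same probe sets, in the same order, differed by 0.08, 0.01, -0.14 and -0.65. The probe sets of Fcgr2b spanned 0.20 to 0.67 on the low-fat diet and -0.15 to 0.22 on the high-fat diet, and those of Eng 0.10 to 0.48 and -0.18 to 0.08. Beside this, the upper quartile of the arrays was 5.48 with PBS and 5.54 with clodronate at low fat, and 5.49 and 5.37 at high fat, and its part in the differences was not tested.

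**Figure D5:**
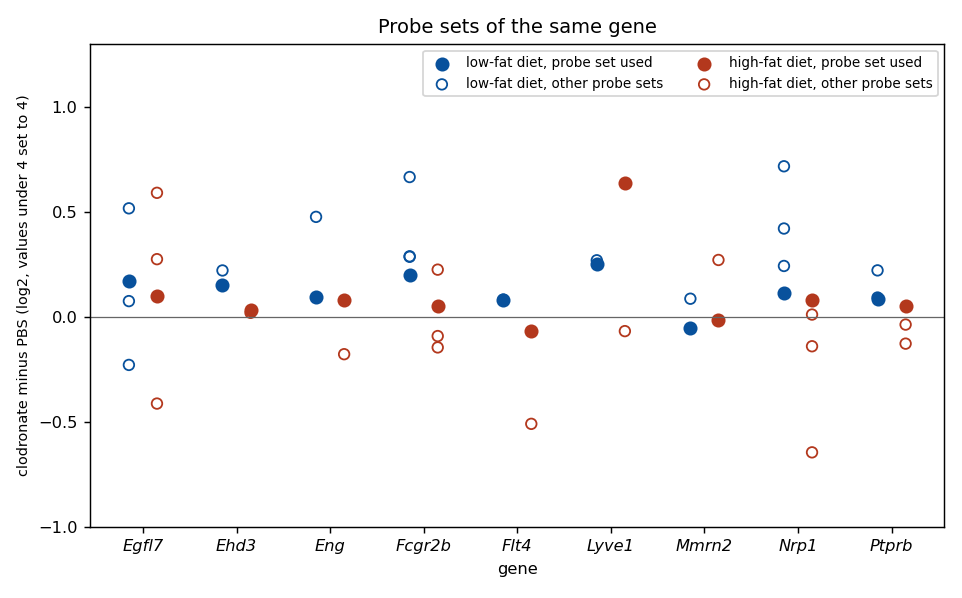
Clodronate minus PBS difference (log2) for every probe set at 4 or more of the 9 genes with several, on the low-fat (blue) and high-fat (red) diet, with the probe set used filled. For Nrp1 the open points reach 0.72 at low fat and -0.65 at high fat, while the filled points are at 0.11 and 0.08.

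Diet differences of the endothelial genes were small and mostly below 0. With PBS 26 of 36 were lower on the high-fat diet and 10 higher (48.9% and 49.5% of all genes). The median was -0.05 against 0.00 over all genes. The count was 26 also after centring of the arrays and after quantile normalization. It depends on the probe set used. Probe sets of the same gene differed in direction with PBS for Egfl7, Ehd3, Eng, Fcgr2b, Flt4, Lyve1, Nrp1 and Ptprb, not for Mmrn2. Those of Nrp1 ran from -0.03 to 0.58 and those of Flt4 from -0.07 to 0.52. With clodronate 31 of 36 were lower (64.9% of all genes), with a median of -0.14 against -0.08. After centring the count was 21 and the median -0.04, and after quantile normalization 25 and -0.03. With PBS none was 1.5-fold or more lower or higher (1.47% and 2.15% of all genes). With clodronate Gata4 and Esam were 1.5-fold or more lower (4.79% of all genes), Gata4 also 2-fold or more (0.74%), and none was 1.5-fold or more higher (1.69%). The comparisons of diet and of clodronate share arrays, so a pool that stands low enters more than 1 of them.

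Averaged over both injections, 32 of the 36 were lower on the high-fat diet, where 61.1% of all genes were. This was 27 of 36 after centring, against 48.7% of all genes, and 29 of 36 after quantile normalization, against 50.5%. None passed adjustment, whereas 0.821% of all genes fell and 0.867% rose. Ptprb and Gata4 were under 0.05 before adjustment (13.2% of all genes). Without the mean-dependent prior 0 of the 36 were (10.3% of all genes). Ptprb differed by -0.21 (95% interval -0.41 to -0.02, limma adjusted p = 0.331). Another Ptprb probe set differed between the diets by 0.04 with PBS and by -0.18 with clodronate. Gata4 differed by -0.67 (95% interval -1.29 to -0.05, limma adjusted p = 0.335). For 33 of the 36 genes the lowest of the 4 values was on a high-fat array, against 58.8% of all genes, and it was 29 after centring and 30 after quantile normalization. On the low-fat clodronate array 22 were highest, against 36.6% of all genes. That count was 14 after centring, against 25.5%, and 16 after quantile normalization, against 24.9%. The high-fat clodronate array was the lowest for 18, against 40.0%, and the interval of the diet difference lay within 1 log2 unit of 0 for 35 of the 36, with Gata4 as the exception.

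Among genes outside the 39 that were listed for endothelium, Clec1b and Vcam1 were called for clodronate and Cd36 for diet. Other cells of the liver also make all of these. Of all genes 0.971% fell and 0.116% rose with clodronate, and 0.821% fell and 0.867% rose with the high-fat diet. Of 17 other genes listed for sinusoidal cells 14 were measurable, and Clec1b, a lectin receptor of sinusoidal endothelium that Kupffer cells also carry, fell. It was at 7.38, 6.11, 7.89 and 6.40 and fell by 1.38 with a standard error of 0.15 (limma, adjusted p = 0.00101, and 0.0531 without the mean-dependent prior). Of 9 listed genes of portal, arterial and large vessels 4 were measurable, and Vcam1, an adhesion molecule of activated endothelium that macrophages also make, fell. It was at 6.27, 4.90, 5.96 and 5.02 and fell by 1.16 with a standard error of 0.20 (limma, adjusted p = 0.0245, and 0.155 without the mean-dependent prior). Of the 18 macrophage markers, which fell as well, 6 were still at 4 or more in the low-fat clodronate pool and 7 in the high-fat clodronate pool. The part of macrophage RNA in both genes was not tested. Gpihbp1, which holds lipoprotein lipase on capillaries, was at 7.82, 8.45, 8.24 and 8.03 and was not called. Cd36, a fatty acid transporter of endothelium that hepatocytes also make, rose with the high-fat diet by 0.88 with a standard error of 0.10 (limma, adjusted p = 0.00244, and 0.299 without the mean-dependent prior).

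How far a member's difference stood out was read against genes of like level. Among the 36, 8 lay outside the central 90% of genes of like mean level in at least 1 of the 4 comparisons, against 26.1% of all genes. They were Lyve1, Mrc1, Aqp1, Pecam1, Esam, Bmp2, Wnt2 and Gata4. The range over the 4 arrays had a median of 0.32 for the members and 0.30 for all genes, and 8 members had a range of 0.5 or more, against 23.2% of all genes. Mmrn2 had the smallest range, 0.06, and Gata4 the widest, 1.26. In the central 90% of genes with a mean level under 6, differences with clodronate ran from -0.46 to 0.52 on the low-fat diet and from -0.62 to 0.36 on the high-fat diet, and 16 of the members were of this level.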

How the data were processed

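Liver RNA pools of 4 groups, 1 Affymetrix array each, were used as deposited. The deposited values are log2 expression that the authors computed in GCRMA, version 2.24.1 by the submitters' processing notes, which corrects probes for background and summarises probe sets. Other settings are not given in the sources used here. The number of arrays limits the precision. Of 45101 probe sets, 34958 carried 1 gene symbol, 932 several and 9211 none. Each gene was represented by its probe set with the highest mean, and the 8650 of 18194 genes that reached 4 on any array were kept.

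Differences between arrays were taken after values under 4 were set to 4 and have no test. Effects averaged over the other factor were fitted in an additive model with limma 3.58.1 (R 4.3.3, eBayes with a mean-dependent prior, Benjamini-Hochberg adjustment at 0.05 over 8650 genes), with 1 residual degree of freedom that also holds any interaction. Data of the clodronate comparison were simulated with 8650 genes, in which each changed gene changed alike on both diets. Changes that differ between diets were not simulated. On these data the model recovered 80.7% of 2-fold and 99.8% of 4-fold changes, and 9.74% of calls were unchanged genes. Without the mean-dependent prior these were 25.4%, 94.2% and 2.01%. The members, roles and lists were chosen with earlier results of these data known. Named in full were members differing by 0.5 or more in a comparison, those called, and Stab1, Stab2, Clec4g, Lyve1, Kdr, Wnt2, Wnt9b, Rspo3 and Bmp2. From each other list up to 3 members with the largest difference and those called were eligible, with Clec4f always. Other genes named were chosen after their values were seen. Python 3.11.15, numpy 2.4.6 and pandas 2.3.3 were used.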

Additional observations from a re-analysis of the deposited data

Results flagged for a closer look

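For 3 endothelial genes the clodronate difference had opposite directions on the 2 diets, each by 0.3 or more. The high-fat minus the low-fat difference was -1.17 for Gata4, -0.94 for Esam and -0.76 for Ramp2. With 1 array per group these differences between diets were not tested.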

How the results depend on the processing

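No paired analysis was possible because each group had 1 array and no replicate numbers, beyond the additive model, which compared clodronate with PBS within each diet. The spread between mice is unknown, the 4 arrays limit every statement, and dim genes carry the widest intervals. None of the 36 genes was called for clodronate or diet under any of the 8 alternatives of the model, with lowest adjusted p-values of 0.389 to 0.909 for clodronate and 0.322 to 0.641 for diet. The median difference of the members with clodronate at low fat was 0.0905, and it was 0.0548 after centring and 0.0516 after quantile normalization. At high fat it was -0.0117, and it was 0.0572 after centring, 0.0541 after quantile normalization, -0.1087 with the mean of detected probe sets and 0.00 with a floor of 5 or no filter. The diet median with PBS was -0.0468, and it was -0.0298 with a floor of 5 and -0.0226 with the mean of detected probe sets. With clodronate it was -0.145, and it was -0.0909 with a floor of 5, -0.0438 after centring and -0.0314 after quantile normalization. The members 1.5-fold lower with clodronate on the low-fat diet went from 0 to 1 after quantile normalization, and those on the high-fat diet from 3 to 1 with a floor of 5. With that floor Gata4 (5.06) and Pecam1 (5.01), by their high-fat PBS values, could not be counted. Members 1.5-fold higher with clodronate on the high-fat diet went from 2 to 1 with the mean of detected probe sets. Members 1.5-fold lower on the high-fat than on the low-fat diet with clodronate went from 2 to 1 with a floor of 5, after centring and after quantile normalization. Gata4, at 5.48 in the low-fat clodronate pool, could not be counted with a floor of 5. Over all genes, 84 fell and 10 rose with clodronate. Without the mean-dependent prior 39 fell and 0 rose, with values under 4 set to 4 these were 53 and 1, and with genes at 4 or more on all arrays 30 and 3. The count that rose was 6 after quantile normalization, 6 with the mean of detected probe sets, 2 with every probe set as its own feature and 1 with no filter. For diet 71 fell and 75 rose. Without the mean-dependent prior 0 fell and 0 rose (894 genes under 0.05 before adjustment), with values under 4 set to 4 these were 31 and 29, with every probe set 33 and 27, and with no filter 23 and 19. The count that rose was 114 after centring and 42 with genes at 4 or more on all arrays. Where no construction shows it, the cause was not tested.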

Other observations

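Other cell types were followed by the same arrays. Of 12 stellate cell markers 9 were measurable, their clodronate differences ran from -0.07 to 0.42 on the low-fat diet and from -0.16 to 0.25 on the high-fat diet, and none was called. Col3a1, a fibrillar collagen, was at 8.09, 8.51, 8.31 and 8.43 in the low-fat PBS, low-fat clodronate, high-fat PBS and high-fat clodronate pools. Of 11 B cell, T cell and NK cell markers 9 had a probe set and all 9 were under 4 on all arrays. S100a8 and S100a9, proteins of neutrophils, were at 4.15 and 4.05 in the low-fat clodronate pool and under 4 in the other 3 pools. Of the cholangiocyte markers Sox9 alone was measurable, at most at 4.42, and of the lymphatic markers Prox1, which hepatocytes also make, at 7.09 to 7.47.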
